A study of Homo sapiens and Mus musculus with 13 samples.

Results

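The expression of 30 genes of macrophages and other myeloid cells was examined in 6 mammary tumors, out of 55228 gene symbols in the tumor table. The genes were chosen by name as known components of these cells, with earlier results of these data known, and all 30 were found. They comprise complement C1q (3 genes), scavenger and endocytic receptors (7 genes), lysosomal and other enzymes (5 genes), Fc receptors with the DAP12 pathway (6 genes), growth factor, chemokine and other surface receptors (5 genes), and 4 genes of other roles. Macrophages engulf dying cells and debris, digest them in lysosomes and sense antibodies, lipids and chemokines through surface receptors. Their precursors, the monocytes, enter tissues through chemokine receptors and mature under the growth factor CSF1, whose receptor is encoded by Csf1r. In mammary tumors macrophages are a large part of the stroma and are often described by such genes.

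The tumors came from Trim11+/+ and Trim11+/- MMTV-PyVT female mice with an age of 3 months, with 3 tumors of each genotype and 1 poly(A) library per tumor. In MMTV-PyVT mice the polyoma virus middle T antigen is driven by a mammary tumor virus promoter and causes tumors of the mammary epithelium. Both genotypes carry this transgene on a hybrid background of C57BL/6N and FVB/N, and in the Trim11+/- mice exon 2-6 of 1 Trim11 allele was deleted in the whole body, so that any macrophage carried the deletion as well as the tumor cells. The labels name Trim11+/- in the strain field of all 6 samples and number the transgenic line from 634Mul/J for Trim11+/+ tumor 1 to 639Mul/J for Trim11+/- tumor 3, whereas the methods name only 634Mul/J, and the genotype label was used here. Nothing in the labels says whether the tumors of a genotype came from separate mice, so p-values measure the spread between these samples. The question was whether the myeloid genes differ between the genotypes and among themselves.

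Libraries held between 8793199 and 11117125 reads, with a median of 10456117, as recovered from the deposited values. Levels are in FPKM, fragments per kilobase of gene, scaled to library size, and 17328 genes with a mean of at least 0.5 FPKM were tested. Trim11 itself was at 37.1 ± 1.84 FPKM (SD, n = 3) in Trim11+/+ tumors and 23.2 ± 0.660 FPKM (SD, n = 3) in Trim11+/- tumors, a ratio of 0.626 with no overlap. Libraries were made from whole tumor tissue, in which fewer cells of a type and less RNA per cell cannot be told apart.

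Most of the 30 genes were expressed in every tumor, and most differed little between the genotypes. Of the 29 genes tested, 24 had a lower and 5 a higher mean log2 level in Trim11+/- tumors, and 27 were within 1.5-fold. Of all genes tested 50.9% were lower. The median log2 fold change (Trim11+/- minus Trim11+/+, on log2(FPKM + 1)) was -0.151 over the 29 genes and -0.005 over all genes tested. By a change of at least 1.5-fold in mean FPKM with an unadjusted limma p under 0.05, 1 of the 29 genes was a DEG with lower expression, Spi1, which is 3.45% beside the 1.87% of all genes tested that this rule called lower. None was called higher, beside 1.74% of all genes tested. No gene of the list had a Benjamini-Hochberg adjusted limma p under 0.05 (0.00577% of all genes tested had), and the adjusted p-values lay between 0.645 and 0.971. At an unadjusted limma p under 0.05 there were 4 of 29 genes, all lower (Laptm5, Cx3cr1, Spi1 and Fcgr1), beside 3.29% of all genes tested that were lower at that p.

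A pair of tumors stood at the ends of the list, Trim11+/+ tumor 1 with high and Trim11+/- tumor 3 with low levels. Trim11+/+ tumor 1 had the highest level in 17 of the 29 genes (58.6%, against 21.5% of all genes tested), and Trim11+/- tumor 3 the lowest in 14 (48.3%, against 20.9%). Without Trim11+/+ tumor 1 the median log2 fold change of the 29 genes was -0.057 and 17 of them were lower. Without Trim11+/- tumor 3 the median was -0.107 and 23 were lower. Without Trim11+/- tumor 1 it was -0.268, and without Trim11+/+ tumor 3 it was -0.231. Averaged over the 29 genes, log2(FPKM + 1) was 4.16, 3.97 and 3.82 in Trim11+/+ tumors 1 to 3 and 3.99, 3.77 and 3.71 in Trim11+/- tumors 1 to 3, so the genotypes overlapped.

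**Figure D1:**
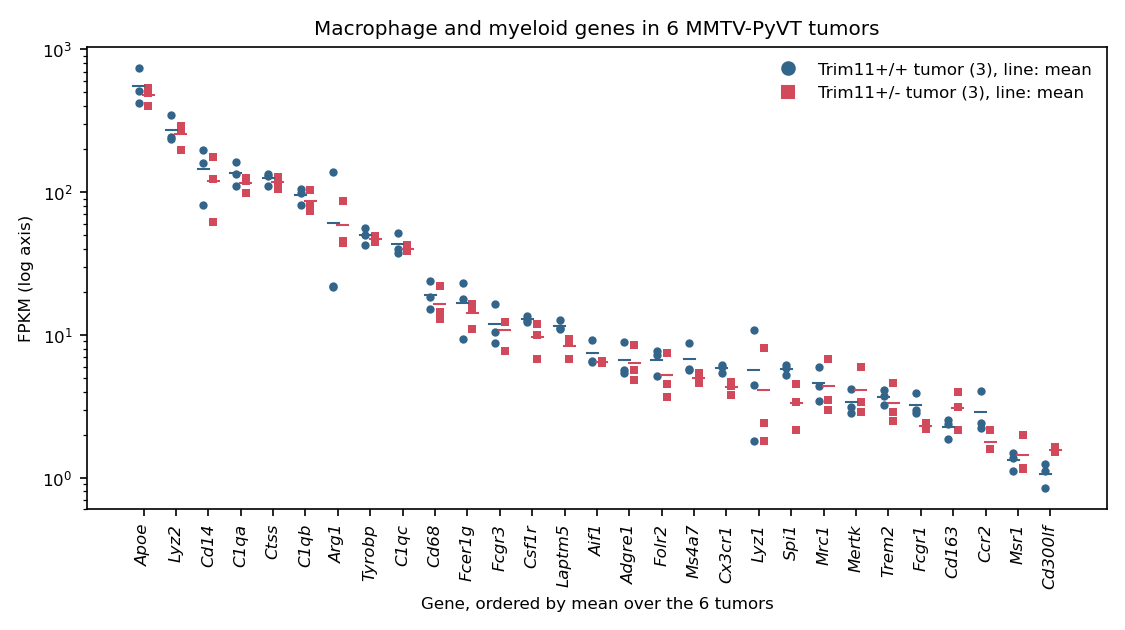
FPKM (log axis) of the 29 genes with reads in each of 6 tumors, ordered by their mean. Circles are the 3 Trim11+/+ tumors, squares the 3 Trim11+/- tumors and lines the genotype means. Apoe lies between 401 and 741 FPKM at the top and Cd300lf between 0.841 and 1.63 FPKM at the bottom, and the genotypes intermix in 21 of the genes.

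The genes of the subunits of C1q, which starts the classical complement pathway, were among the most abundant of the list. They lie side by side on the minus strand of chromosome 4 of mm10, C1qb from 136880129 to 136886187, C1qc from 136889804 to 136893065 and C1qa from 136895917 to 136898803. C1qa was at 164, 110 and 133 FPKM in Trim11+/+ tumors 1 to 3 and at 99.4, 127 and 120 FPKM in Trim11+/- tumors 1 to 3. C1qb was at 105, 98.5 and 81.2 FPKM in Trim11+/+ tumors and at 104, 81.4 and 73.5 FPKM in Trim11+/- tumors. C1qc was at 51.9, 40.2 and 37.4 FPKM in Trim11+/+ tumors and at 42.5, 38.6 and 38.8 FPKM in Trim11+/- tumors. All 3 genes were highest in Trim11+/+ tumor 1 and overlapped between the genotypes. Their log2 fold changes were -0.22 for C1qa (95% interval -0.63 to 0.19), -0.14 for C1qb (-0.53 to 0.25) and -0.10 for C1qc (-0.43 to 0.24), with limma adjusted p-values between 0.826 and 0.907. The ratio of C1qb to C1qc in FPKM lay between 1.89 and 2.45 over the 6 tumors and that of C1qa to C1qc between 2.34 and 3.57, with overlap of the genotypes. The pairs for this and the following ratios were chosen after the values were seen.

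Complement genes other than C1q did not contain a DEG. Of 26 genes listed, 25 were in the table, 19 were tested and none passed the fold and p rule. Their median log2 fold change was -0.080, and 12 were lower and 7 higher. The summed FPKM of the list was between 201 and 469 in Trim11+/+ tumors and between 236 and 426 in Trim11+/- tumors.

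The scavenger and endocytic receptors, which take up lipoproteins, sugars on proteins, hemoglobin complexes and bacterial products, contained no DEG, and the 6 of 7 that had reads overlapped between the genotypes. Cd14, which binds bacterial lipopolysaccharide, was at 81.5, 196 and 159 FPKM in Trim11+/+ tumors and at 175, 123 and 62.2 FPKM in Trim11+/- tumors. Its level spanned 3.15-fold over the tumors, with the extremes in Trim11+/+ tumor 2 and Trim11+/- tumor 3, and its log2 fold change of -0.31 had a 95% interval of -1.40 to 0.79. Cd68, a lysosomal glycoprotein widely used to count macrophages, was at 23.8, 15.1 and 18.3 FPKM in Trim11+/+ tumors and at 21.9, 14.4 and 12.96 FPKM in Trim11+/- tumors. The genotypes overlapped, and the log2 fold change was -0.22 with a limma adjusted p of 0.872.

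Mrc1, the mannose receptor, was at 3.45, 5.93 and 4.41 FPKM in Trim11+/+ tumors and at 6.73, 3.499 and 2.97 FPKM in Trim11+/- tumors. Trim11+/- tumors held both its highest and its lowest level. Msr1, a class A scavenger receptor, lay between 1.12 and 2.00 FPKM over the 6 tumors, and Folr2, a folate receptor of tissue macrophages, between 3.67 and 7.73 FPKM. The log2 fold change of Folr2 was -0.33 (limma adjusted p = 0.821), and without Trim11+/- tumor 1 it was -0.58 and Folr2 passed the fold and p rule. Cd163, the receptor for hemoglobin bound to haptoglobin, was at 2.38, 1.86 and 2.52 FPKM in Trim11+/+ tumors and at 3.97, 2.15 and 3.14 FPKM in Trim11+/- tumors. Its mean was 1.37-fold higher in Trim11+/- tumors with overlap (log2 fold change 0.31, standard error 0.20, limma adjusted p = 0.790). Without Trim11+/- tumor 2, the lowest of its genotype, the log2 fold change of Cd163 was 0.49 and it passed the fold and p rule.

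Set against Cd68 within each tumor, Cd163 was separated by genotype. The ratio of Cd163 to Cd68 was 0.09995, 0.123 and 0.138 in Trim11+/+ tumors and 0.181, 0.149 and 0.242 in Trim11+/- tumors, so that every Trim11+/- tumor was above every Trim11+/+ tumor. The ratio of Mrc1 to Cd68 lay between 0.145 and 0.393 and that of Folr2 to Cd68 between 0.216 and 0.480, and both overlapped. The ratios of Csf1r, Cd14 and Arg1 to Cd68, of Ccr2 to Cx3cr1, and of Fcer1g and Trem2 to Tyrobp overlapped as well. Of all ratios formed, only those of Cd163 to Cd68 and of Spi1 to C1qa did not overlap. These ratios are descriptions without a test, and some of many ratios can separate 3 tumors from 3 without any genotype difference. Cd163 was divided by no other gene, so whether the separation holds against other macrophage genes was not examined. CD68, the human orthologue of Cd68, was at 65.6 to 111 FPKM in cancer cells cultured without macrophages.

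Marco, a scavenger receptor of macrophages in lung and lymphoid tissue, was listed at 0 in all 6 tumors. Its count of 0 reads in each library allows up to 3 reads there, and this limit covers counting error only. Marco was the only gene of the 30 with no value for a fold change. Outside the 30 genes, 15 of 18 scavenger receptors were tested and none was a DEG, with 10 lower and 5 higher and a median log2 fold change of -0.197.

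**Figure D2:**
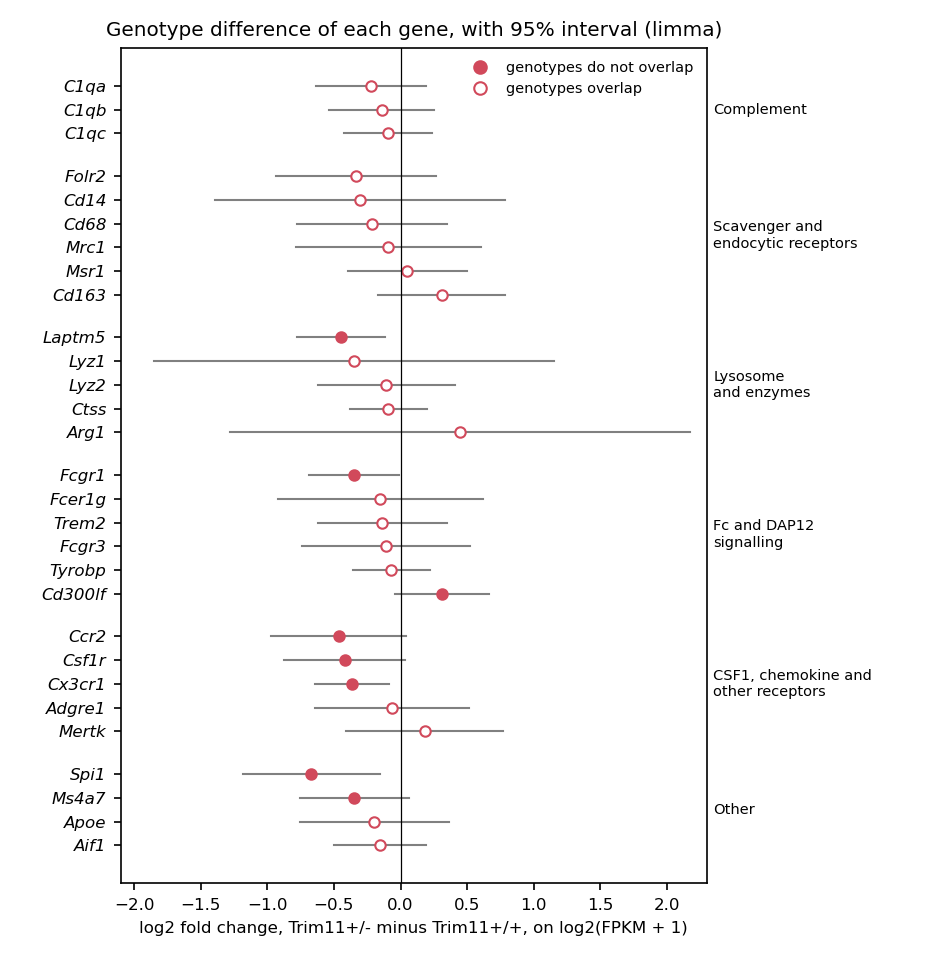
Log2 fold change (horizontal axis, Trim11+/- minus Trim11+/+, on log2(FPKM + 1)) of 29 genes grouped by role, with lines for the 95% interval of limma. Filled circles are genes whose 3 tumors of one genotype do not overlap the 3 of the other, 7 lower and Cd300lf higher, and the intervals of Arg1 and Lyz1 are the widest.

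Among the 5 genes of lysosome and enzymes Ctss and Lyz2 varied least over the tumors, and Arg1 and Lyz1 most. Ctss, which encodes the cysteine protease cathepsin S of antigen presenting cells, was at 131, 133 and 110.5 FPKM in Trim11+/+ tumors and at 119, 127 and 105.5 FPKM in Trim11+/- tumors. The genotypes overlapped within a 1.26-fold range, the log2 fold change was -0.09, and its 95% interval of -0.38 to 0.20 leaves out a change of 1.5-fold in either direction. Among other cathepsins none of 12 tested was a DEG, 7 were lower and 5 higher, and the median log2 fold change was -0.041. Their summed FPKM was between 624 and 690 in Trim11+/+ tumors and between 606 and 716 in Trim11+/- tumors. The 12 other lysosomal genes contained no DEG, with a median of -0.023.

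Laptm5, a lysosomal membrane protein of blood cells, was at 12.6, 11.1 and 11.1 FPKM in Trim11+/+ tumors and at 9.43, 8.71 and 6.76 FPKM in Trim11+/- tumors. The genotypes did not overlap, and the ratio of means was 0.715, short of 1.5-fold. Its log2 fold change was -0.45 (95% interval -0.78 to -0.11, unadjusted p = 0.0160 and adjusted p = 0.645 in limma). Without Trim11+/- tumor 1 the log2 fold change of Laptm5 was -0.54 and it passed the fold and p rule. Arg1, which encodes arginase and is expressed by macrophages that respond to interleukin 4 or low oxygen, was at 138, 22.1 and 21.5 FPKM in Trim11+/+ tumors and at 45.5, 44.0 and 86.1 FPKM in Trim11+/- tumors. Trim11+/+ tumor 1 was above all others, and the remaining Trim11+/+ tumors were below all Trim11+/- tumors. The mean FPKM of the genotypes had a ratio of 0.969 but the mean log2 levels differed by 0.45 in the other direction (95% interval -1.28 to 2.18). Without Trim11+/+ tumor 1, the log2 fold change of Arg1 was 1.32 and it passed the fold and p rule (limma adjusted p = 0.583).

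Lyz2 and Lyz1 encode lysozymes, enzymes that cut bacterial cell walls, and lie next to each other on the minus strand of chromosome 10 of mm10, Lyz2 from 117277331 to 117282321 and Lyz1 from 117287797 to 117292868. Lyz2 is the myeloid gene and Lyz1 is known from Paneth cells of the gut. Their coding sequences are printed to show how near the copies are. They hold the first 300 coding bases of each gene from GENCODE transcripts of mm10, exons joined, which span chr10:117291030-117292838 for Lyz1 and chr10:117280642-117282242 for Lyz2 on the minus strand, with the 20 bases that differ in this stretch in capitals.
Lyz1: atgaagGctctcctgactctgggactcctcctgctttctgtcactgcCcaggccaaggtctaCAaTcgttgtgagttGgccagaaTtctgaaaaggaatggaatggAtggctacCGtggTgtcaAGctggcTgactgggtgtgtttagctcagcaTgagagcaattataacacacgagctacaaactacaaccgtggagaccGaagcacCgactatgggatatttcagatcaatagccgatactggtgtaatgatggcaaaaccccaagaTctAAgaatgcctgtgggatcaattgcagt
Lyz2: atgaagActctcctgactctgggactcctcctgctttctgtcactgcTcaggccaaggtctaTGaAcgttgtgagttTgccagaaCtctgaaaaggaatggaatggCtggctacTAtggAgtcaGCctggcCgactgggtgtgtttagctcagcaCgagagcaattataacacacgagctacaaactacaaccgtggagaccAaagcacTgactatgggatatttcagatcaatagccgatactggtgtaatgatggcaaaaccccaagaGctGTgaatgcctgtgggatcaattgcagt
Over the 444 coding bases 22 differed, an identity of 95%, and the longest identical run was 118 bases. Of all 50-base windows of their transcripts, 16.1% of Lyz1 and 15.4% of Lyz2 also occurred in the other gene. Some reads could thus be split between them, and the level of Lyz1 is uncertain. The study's paired reads were longer before trimming than these windows and than the identical coding run. The share of reads without a differing base may therefore be smaller than that of windows.

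Lyz2 was at 346, 235 and 242 FPKM in Trim11+/+ tumors and at 273, 197 and 292 FPKM in Trim11+/- tumors, with overlap and a log2 fold change of -0.11 (limma adjusted p = 0.943). Lyz1 was at 4.42, 10.8 and 1.82 FPKM in Trim11+/+ tumors and at 8.05, 1.80 and 2.43 FPKM in Trim11+/- tumors. Lyz1 was high in Trim11+/+ tumor 2 and Trim11+/- tumor 1, with 139 and 113 reads, and low in Trim11+/+ tumor 3 and Trim11+/- tumor 2, with 23 and 20 reads. As a share of Lyz2, Lyz1 was between 0.749% and 4.61%, a 6.16-fold range, while Lyz2 itself spanned 1.75-fold. The 2 tumors with the most Lyz1 also had the highest summed level of 6 adipocyte markers, 393 and 330 FPKM against 26.7 to 177 FPKM in the others, whose part in the result was not tested.

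The genes of Fc receptors and of the DAP12 pathway, by which macrophages respond to antibodies and lipids, were within 1.5-fold in all 6 cases. Tyrobp, which encodes the adaptor DAP12, was among the steadiest genes of the list, at 56.5, 49.99 and 42.7 FPKM in Trim11+/+ tumors and at 46.9, 45.01 and 49.4 FPKM in Trim11+/- tumors. The genotypes overlapped (log2 fold change -0.07, 95% interval -0.36 to 0.22). Trem2, a lipid receptor that signals through DAP12, was at 4.09, 3.22 and 3.75 FPKM in Trim11+/+ tumors and at 2.49, 4.62 and 2.90 FPKM in Trim11+/- tumors. Trim11+/- tumors held both extremes of Trem2. Fcer1g, the signaling chain shared by Fc receptors, lay between 9.35 and 23.1 FPKM, and Fcgr3, a receptor of lower affinity for IgG, between 7.73 and 16.3 FPKM, both highest in Trim11+/+ tumor 1. Of the windows of Fcgr3, 9.58% also occur in Fcgr2b, the inhibitory Fc receptor. Some reads could thus be split between them, though the study's reads were longer than the windows.

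Fcgr1, the high affinity receptor for IgG, was at 2.97, 3.91 and 2.85 FPKM in Trim11+/+ tumors and at 2.33, 2.42 and 2.19 FPKM in Trim11+/- tumors. It did not overlap, with a ratio of 0.713 and a log2 fold change of -0.35 (standard error 0.14, unadjusted p = 0.0453 and adjusted p = 0.713 in limma). Cd300lf, a receptor for lipids of dying cells that mostly inhibits myeloid cells, was at 1.12, 0.841 and 1.24 FPKM in Trim11+/+ tumors and at 1.54, 1.63 and 1.5 FPKM in Trim11+/- tumors. Cd300lf was the only gene of the 29 with every Trim11+/- tumor above every Trim11+/+ tumor (3.45%, beside 6.60% of all genes tested). Its ratio was 1.46 and its log2 fold change 0.31 (95% interval -0.04 to 0.67, limma adjusted p = 0.726), at 44 to 88 reads per library. Of 12 further genes of Fc receptors and DAP12 partners that were tested, 11 were lower and 1 higher, with a median log2 fold change of -0.240. Of all genes tested 50.9% were lower. The only DEG among them was Clec4d, a C-type lectin named after its values were seen, with 1.03 FPKM in Trim11+/+ and 0.333 FPKM in Trim11+/- tumors. Clec4d was low, between 0.142 and 1.37 FPKM over the tumors, and 1.87% of all genes tested were called lower.

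The genes of growth factor and chemokine receptors had the lowest median log2 fold change of the 5 named roles, -0.364, against -0.142 for C1q, -0.154 for scavenger receptors, -0.108 for lysosome and enzymes and -0.125 for Fc and DAP12. These medians are descriptions over 3 to 6 genes each. Csf1r, the receptor by which CSF1 and interleukin 34 maintain macrophages, was at 13.7, 12.3 and 12.7 FPKM in Trim11+/+ tumors and at 12.01, 9.95 and 6.82 FPKM in Trim11+/- tumors. The genotypes did not overlap, though Trim11+/- tumor 1 was close to Trim11+/+ tumor 2. The ratio was 0.745 and the log2 fold change -0.42 (standard error 0.19, limma adjusted p = 0.714). Without Trim11+/- tumor 3 the log2 fold change was -0.22, and without Trim11+/- tumor 1 it was -0.58 and Csf1r passed the fold and p rule. Of the windows of Csf1r, 14.3% also belong to Hmgxb3, a gene on the other strand, and the libraries did not keep strand.

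Cx3cr1, the fractalkine receptor of resident monocytes and macrophages, was at 6.14, 5.39 and 5.93 FPKM in Trim11+/+ tumors and at 4.39, 4.70 and 3.82 FPKM in Trim11+/- tumors. Its genotypes were separated with little spread within each, and it had the smallest standard error of the list. The ratio was 0.740 and the log2 fold change -0.36 (standard error 0.12, unadjusted p = 0.0182 and adjusted p = 0.647 in limma). Ccr2, the receptor by which inflammatory monocytes follow CCL2 from the blood, was at 2.40, 4.07 and 2.23 FPKM in Trim11+/+ tumors and at 2.16, 1.598 and 1.583 FPKM in Trim11+/- tumors. The genotypes did not overlap, but Trim11+/- tumor 1 was close to Trim11+/+ tumor 3. The ratio of 0.614 was past 1.5-fold and the unadjusted limma p of 0.0666 was not under 0.05. Without Trim11+/+ tumor 2 the log2 fold change of Ccr2 went from -0.46 to -0.26, and without Trim11+/+ tumor 3 it was -0.59 and passed the fold and p rule.

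Adgre1, which encodes the macrophage antigen F4/80, was at 8.85, 5.68 and 5.42 FPKM in Trim11+/+ tumors and at 8.50, 4.85 and 5.63 FPKM in Trim11+/- tumors. Tumor 1 of each genotype was high and the genotypes overlapped (log2 fold change -0.07, 95% interval -0.65 to 0.51). Mertk, a kinase that recognizes dying cells through GAS6 and protein S, was at 4.2, 3.11 and 2.85 FPKM in Trim11+/+ tumors and at 3.40, 5.98 and 2.90 FPKM in Trim11+/- tumors. Its higher mean in Trim11+/- tumors rested on tumor 2, without which the log2 fold change turned from 0.18 to -0.07.

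Spi1, which encodes PU.1, the transcription factor needed to form macrophages and other myeloid cells, had the largest decrease of the 29 genes. It lies on the plus strand of chromosome 2 of mm10 from 91082390 to 91115756. Spi1 was at 6.15, 5.88 and 5.25 FPKM in Trim11+/+ tumors and at 3.37, 4.56 and 2.14 FPKM in Trim11+/- tumors, from 181, 161 and 142 reads and from 101, 108 and 62 reads. The genotypes did not overlap, and the lowest was Trim11+/- tumor 3. The exact permutation test gave a two-sided p of 0.1, which any gene without overlap has with 3 tumors against 3. The mean fell from 5.76 ± 0.460 FPKM (SD, n = 3) to 3.36 ± 1.21 FPKM (SD, n = 3), a ratio of 0.583. Its log2 fold change was -0.67 (standard error 0.22, 95% interval -1.19 to -0.15, unadjusted p = 0.0185 and adjusted p = 0.647 in limma). Without Trim11+/- tumor 3 the log2 fold change was -0.45 and Spi1 was no longer a DEG. The call was also lost without Trim11+/+ tumor 1, with -0.63, and without Trim11+/+ tumor 2, with -0.66. Relative to C1qa in the same tumor, Spi1 was at 0.0376, 0.0535 and 0.0394 in Trim11+/+ tumors and at 0.0339, 0.0360 and 0.0178 in Trim11+/- tumors, which did not overlap. Relative to Csf1r, Spi1 was at 0.450, 0.478 and 0.413 in Trim11+/+ tumors and at 0.281, 0.458 and 0.314 in Trim11+/- tumors, which overlapped.

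Ms4a7, a membrane protein of tissue macrophages, was at 8.71, 5.70 and 5.77 FPKM in Trim11+/+ tumors and at 5.39, 4.95 and 4.62 FPKM in Trim11+/- tumors. It did not overlap, with the widest gap between Trim11+/+ tumor 1 and the rest (log2 fold change -0.35, limma adjusted p = 0.730). Aif1, which encodes the actin binding protein IBA1, was at 9.20, 6.61 and 6.50 FPKM in Trim11+/+ tumors and between 6.38 and 6.58 FPKM in Trim11+/- tumors. Apart from the high level in Trim11+/+ tumor 1, the other values of Aif1 were nearly equal. Apoe, a carrier of lipids made by macrophages and other cells, was the most abundant gene of the list, at 741, 420 and 512 FPKM in Trim11+/+ tumors and at 538, 492 and 401 FPKM in Trim11+/- tumors. Its genotypes overlapped (log2 fold change -0.20, limma adjusted p = 0.884).

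Counted together, 7 of the 29 genes had all Trim11+/- tumors below all Trim11+/+ tumors (24.1%, beside 6.78% of all genes tested). They were Spi1, Ccr2, Laptm5, Csf1r, Cx3cr1, Fcgr1 and Ms4a7. For each of them the exact permutation test gave a two-sided p of 0.1, the smallest possible with 3 tumors of each genotype. Lack of overlap always gives this p, so the test adds nothing to the count. These genes are expressed partly in the same cells and were measured in the same 6 tumors, so they are not independent of each other. None of the 7 was a C1q gene or a scavenger receptor, and Tyrobp and Ctss overlapped between the genotypes too. Whether the groups of genes differ in their response was not tested.

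**Figure D3:**
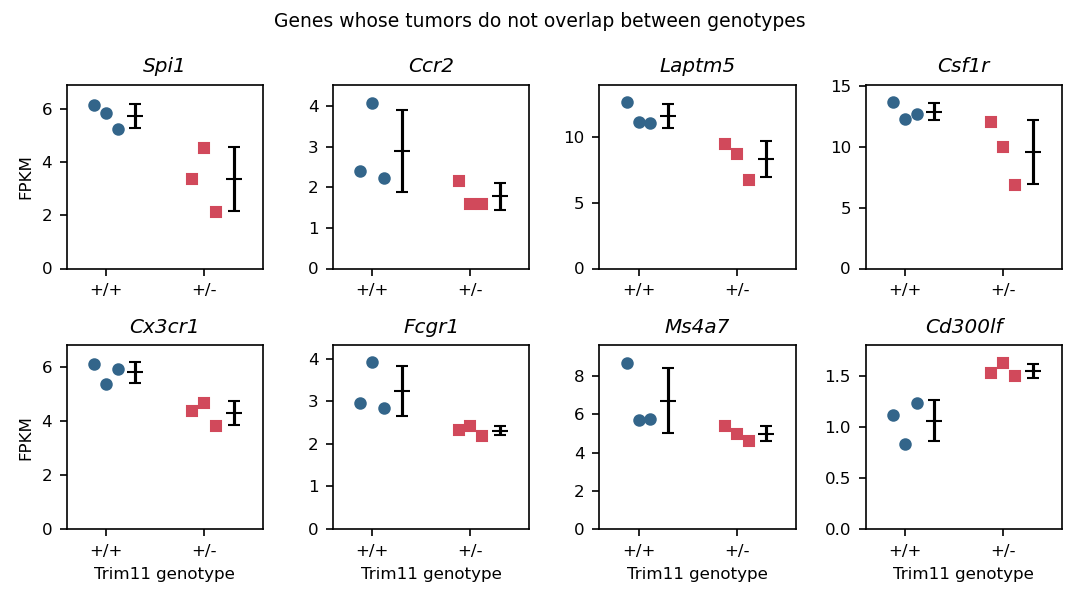
FPKM of the 8 genes whose tumors do not overlap between genotypes, 1 panel each with a vertical axis from 0. Circles are the 3 Trim11+/+ tumors, squares the 3 Trim11+/- tumors, and black bars the mean with SD. Spi1 goes from a mean of 5.76 to 3.36 FPKM, and Cd300lf is the 1 gene that is higher in Trim11+/- tumors.

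**Figure D4:**
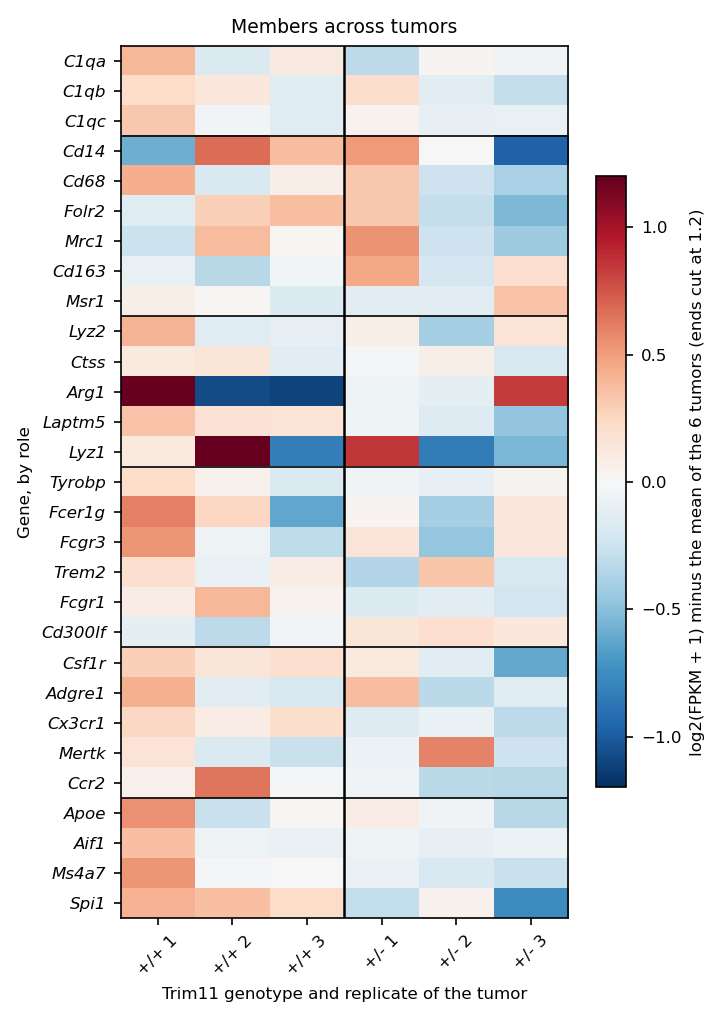
Log2(FPKM + 1) of 29 genes (rows, by role) in 6 tumors (columns), minus the mean of the 6 tumors, with red above and blue below it and the color ending at 1.2. Trim11+/+ tumor 1 is red in most rows and Trim11+/- tumor 3 blue in many, and Cd14, Arg1 and Lyz1 have patterns of their own.

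Averaged by role, the genotypes overlapped in 5 roles and not in the genes of other roles. The mean log2(FPKM + 1) of the C1q genes was 6.61, 6.27 and 6.23 in Trim11+/+ tumors and 6.27, 6.22 and 6.15 in Trim11+/- tumors. That of the scavenger receptors was 3.14, 3.37 and 3.34 in Trim11+/+ tumors and 3.57, 3.05 and 2.94 in Trim11+/- tumors. Trim11+/+ tumor 1 was thus the highest for C1q but not for scavenger receptors, which were highest in Trim11+/- tumor 1. The Fc and DAP12 genes averaged 3.33, 3.12 and 2.91 in Trim11+/+ tumors and 3.04, 2.98 and 3.08 in Trim11+/- tumors. The receptors for growth factors and chemokines averaged 2.83, 2.71 and 2.58 in Trim11+/+ tumors and 2.64, 2.54 and 2.26 in Trim11+/- tumors. The lysosomal genes and enzymes averaged 5.76, 5.33 and 4.86 in Trim11+/+ tumors and 5.42, 4.98 and 5.22 in Trim11+/- tumors. These 5 roles overlapped, with differences between genotype means from -0.227 for the receptors to -0.084 for Fc and DAP12. The 4 genes of other roles (Spi1, Aif1, Ms4a7 and Apoe) averaged 4.75, 4.29 and 4.33 in Trim11+/+ tumors and 4.2, 4.22 and 3.93 in Trim11+/- tumors, a difference of -0.342 without overlap. These averages are descriptions without a test. The coefficient of variation over the 6 tumors had a median of 24.3% over the 29 genes, from 9.33% for Ctss to 76.8% for Lyz1, against a median of 18.7% over all genes tested.

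Ligands of the receptors and their partners, among them the related receptors Csf2ra, Csf2rb, Axl and Tyro3, had mostly lower levels in Trim11+/- tumors. Of 14 such genes that were tested, 13 were lower and 1 higher, beside 50.9% of all genes tested that were lower, with a median log2 fold change of -0.432. DEGs with lower expression were 2 of the 14, beside 1.87% of all genes tested. The gene that was not lower was Pros1, which encodes protein S, the other ligand of Mertk, with a log2 fold change of 0.01. Gas6, the ligand of Mertk, was at 105, 105 and 113 FPKM in Trim11+/+ tumors and at 81.5, 85.6 and 44.1 FPKM in Trim11+/- tumors, and it fell by 0.66 on the log2 scale (standard error 0.25, limma adjusted p = 0.704). The genotypes did not overlap and Trim11+/- tumor 3 was the lowest. Ccl2, the ligand of Ccr2, was named after its values were seen, at 1.93, 3.37 and 4.203 FPKM in Trim11+/+ tumors and 1.74, 0.899 and 0.736 FPKM in Trim11+/- tumors. Ccl2 fell by 0.96 on the log2 scale without overlap (limma adjusted p = 0.634). Of 9 genes of lipid handling tested, the only DEG was Pltp, which transfers phospholipids between lipoproteins, beside 1.87% of all genes tested called lower. Pltp was at 21.8, 13.6 and 14.9 FPKM in Trim11+/+ tumors and 11.1, 7.06 and 6.28 FPKM in Trim11+/- tumors. The fall of Pltp was 0.96 on the log2 scale without overlap (standard error 0.25, limma adjusted p = 0.612), and the median over the 9 genes was -0.100.

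Markers of other cells also moved from tumor to tumor, and their part in the results was not tested. The summed FPKM of 6 genes of all leukocytes was 68.9 to 90.8 in Trim11+/+ tumors and 59.9 to 69.8 in Trim11+/- tumors, and all 6 were lower on average with none a DEG. The 6 monocyte markers summed to 16.3 to 21.7 FPKM in Trim11+/+ tumors and 10.5 to 19.0 FPKM in Trim11+/- tumors, with Ly6c2 at 0.503 FPKM or less and Chil3 listed at 0 in 2 tumors. The 9 neutrophil markers summed to 19.0 to 37.4 FPKM in Trim11+/+ tumors and 18.9 to 21.3 FPKM in Trim11+/- tumors, mostly S100a8, with Ly6g at 0 in all tumors. A DEG of this list, named after its values were seen, was S100a9, a calcium binding protein of neutrophils. Its ratio was 0.243 without overlap (limma adjusted p = 0.635), and 1.87% of all genes tested were called lower. The other 2 genes tested were lower too and no DEGs, S100a8 with overlap (ratio 0.715) and Csf3r without (ratio 0.736). Among the markers too low to be tested, Retnlg and Camp had higher means in Trim11+/- tumors, and Cxcr2, Mmp8 and Ngp lower means. The 8 markers of T cells and the 8 of dendritic cells summed to at most 7.498 and 4.762 FPKM in any tumor. The 6 B and plasma cell markers summed to 2.53 to 10.8 FPKM and the 5 NK markers to 0.679 to 1.65 FPKM over all tumors. The NK marker Gzma, a protease of killer cells also named after its values were seen, was a DEG that was higher without overlap. Its mean was 0.225 FPKM in Trim11+/+ and 0.895 FPKM in Trim11+/- tumors (limma adjusted p = 0.647). Gzma was the only NK marker with enough expression to be tested. Ncr1, Klrb1c and Klre1 had lower means in Trim11+/- tumors, and Eomes a slightly higher mean, 0.117 against 0.106 FPKM. Mast cell markers, mostly Kit, which the mammary epithelium also expresses, summed to 24.1 to 57.4 FPKM in Trim11+/+ and 22.4 to 57.9 FPKM in Trim11+/- tumors.

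Of the tissue markers, epithelial genes overlapped, with 1592 to 2021 FPKM in Trim11+/+ tumors and 1534 to 2070 FPKM in Trim11+/- tumors, and both the lowest sum and the lowest level of 14 myeloid genes were in Trim11+/- tumor 3. The fibroblast markers summed to 163 to 354 FPKM in Trim11+/+ and 141 to 254 FPKM in Trim11+/- tumors, and endothelial markers to 15.2 to 22.2 and 10.3 to 22.9 FPKM, lowest in Trim11+/- tumor 3. Skeletal muscle markers went from 1.78 to 272 FPKM and adipocyte markers from 26.7 to 393 FPKM over the tumors, with overlap of the genotypes. Red cell markers did not overlap, with 38.0 to 47.8 FPKM in Trim11+/+ and 16.3 to 24.2 FPKM in Trim11+/- tumors. Of the 5 red cell genes 3 fell and 1 rose by the fold and p rule. Of all genes tested, 1.87% fell and 1.74% rose by this rule. Hbb-bs, a beta globin gene, had a ratio of 0.427 and Hba-a1, an alpha globin gene, a ratio of 0.351. The other genes are named after their values were seen. Hbb-bt also fell, with a ratio of 0.4211, whereas Hba-a2 rose, with a ratio of 24.14 and overlap. Alas2, the only gene of the list that is no globin gene, was higher too, with a ratio of 1.327 and overlap, but no DEG. The values of the globin genes are uncertain because near-identical globin genes may share their reads.

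The cancer cell line MDA-MB-231, a human breast cancer line cultured without macrophages, gives the level of orthologous genes in its own cells. Levels in the cancer cells of the mouse tumors were not measured and may differ. Human orthologues of 28 of the 30 genes were looked up in its 7 libraries (1 Control, 2 TRIM11-KD, 2 KDM5C-KD and 2 DKD lines, DKD being the knockdown of both genes), and all 28 were found. The tables were normalized separately, so levels stand side by side with no ratio. In the cell line 21 orthologues were below 1 FPKM in every library. Of these, 8 were listed at 0 in all 7 libraries, namely C1QA, C1QB, C1QC, TYROBP, CD163, AIF1, SPI1 and CD300LF. In the mouse tumors the same 8 genes lay between 0.841 FPKM for Cd300lf and 164 FPKM for C1qa.

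Only 6 of the orthologues were at 1 FPKM or more in all 7 libraries. CD68 was at 65.6 to 111 FPKM in the cell line, while Cd68 was at 12.96 to 23.8 FPKM in the tumors. LAPTM5 was at 6.44 to 16.95 FPKM, while Laptm5 was at 6.76 to 12.6 FPKM in the tumors. MERTK was at 2.31 to 6.11 FPKM beside 2.85 to 5.98 FPKM for Mertk. All 3 were thus detected in cancer cells cultured without myeloid cells. APOE at 2.68 to 6.22 FPKM, CTSS at 1.77 to 5.31 FPKM and CD14 at 1.15 to 5.24 FPKM were detected as well, where their mouse counterparts reached 741, 133 and 196 FPKM in the tumors. CSF1R was between 0.314 and 1.21 FPKM. Depth is unknown for the cell line table.

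**Figure D5:**
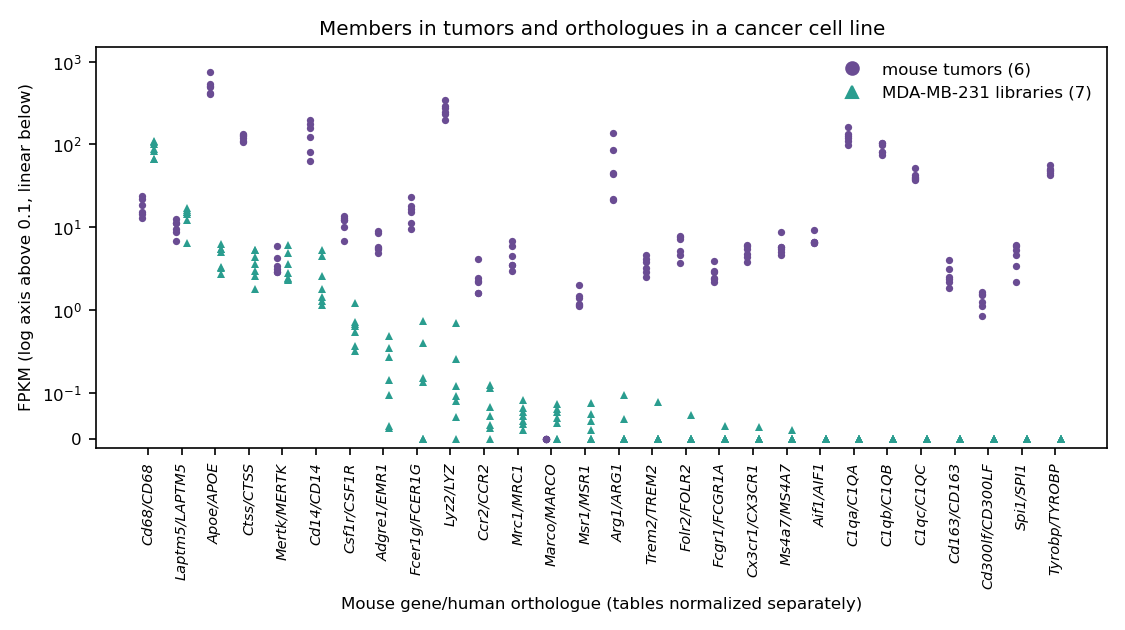
FPKM (log axis above 0.1, linear below) of 28 mouse genes in 6 tumors (circles) and of their human orthologues in 7 MDA-MB-231 libraries (triangles), ordered by the cell line. CD68, LAPTM5 and MERTK overlap or exceed the tumor values, and 8 orthologues at the right are at 0 in the cell line.

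Some of the 30 genes share sequence or exons with other genes, which bears on their levels. Of the 50-base windows of Folr2, 52.6% also occur in Gm10602, whose exons overlap 975 bases of Folr2 on the other strand, so the level of Folr2 is uncertain. For the genes not yet named in this respect at most 2.44% of windows, those of Cd300lf, occurred in another gene, and 20 of the 30 genes shared no window.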

How the data were processed

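The submitters' labels and the study's methods were used for the design. Libraries of poly(A) RNA from whole tumors were non-directional and read from both ends. By the study's methods, reads were trimmed, mapped with HISAT2 to mm10 (tumors) or hg19 (cell lines), and expression was computed with Cufflinks. FPKM per gene and library were deposited in 1 table for tumors and 1 for cell lines. The submitters' processing notes also name Bowtie 0.12.2 and mm8. Of the tumor FPKM values checked, 98.73% were whole reads (within 0.01) divided by GENCODE gene length and library total, which gave the read numbers. Such values are read counts over length, so whether they came from Cufflinks is uncertain.

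For symbols with several rows, the row with the highest mean was kept (107 rows dropped). The 30 genes and the lists were chosen with earlier results of these data known. Levels were compared as log2(FPKM + 1), which understates changes of low genes, with limma 3.58.1 in R 4.3.3 (lmFit and eBayes with a trend) and genotype only, over all genes with a mean of at least 0.5 FPKM. P-values were adjusted by Benjamini-Hochberg over all genes tested. DEGs were genes whose mean FPKM differed at least 1.5-fold, up or down, with p under 0.05 before adjustment. The fit was tested on simulated data. No library was left out of the main results. All 30 genes were named. Of the other lists, DEGs with a mean of at least 5 FPKM were named, at most the 5 with the largest change per list, and others are said to be named after their values were seen. Human orthologues were described without a test. The alternatives were pseudocount 0.1, other expression filters, rescaling by median ratios, eBayes without a trend, a fold of 2, limma voom on the recovered reads, the replicate number as a block and each tumor left out in turn. Other tools were Python 3.11.15, numpy 2.4.6, pandas 2.3.3, scipy 1.17.1 and matplotlib 3.10.9. Motifs in promoters were not analysed here.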

Additional observations from a re-analysis of the deposited data

How the results depend on the processing

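With 3 tumors of each genotype, the standard error of the log2 fold change was 0.12 to 0.72 over the 29 genes tested, with a median of 0.20, which limits what differences could be resolved. The median log2 fold change of the 29 genes tested was -0.172 with a pseudocount of 0.1 and -0.178 with limma voom on recovered reads, and 24 genes were lower under each setting that kept all tumors. Leaving out each tumor in turn gave medians from -0.268 to -0.057 and 17 to 25 lower genes. The number of the 29 genes called lower, 1 in the main result, was 0 at a fold of 2, 2 with voom (Spi1 and Ccr2) and 0 to 4 when each tumor was left out. The number called higher was 0 to 1 then, Cd163 without Trim11+/- tumor 2 and Arg1 without Trim11+/+ tumor 1.

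Over all genes tested, 301 higher and 324 lower DEGs became 479 and 491 with any mean above 0, 164 and 161 at a fold of 2, and 275 to 439 higher and 296 to 466 lower genes when each tumor was left out. The 1 gene with an adjusted p under 0.05 became 0 with voom and with the replicate number as a block, and 0 to 1 when each tumor was left out.

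Of 377 log2 fold changes (29 genes under 13 settings), 347 kept their direction and their side of the fold and p rule, 3 lost the call, 7 gained it and 20 changed sign. The sign changes were in 13 genes, each when 1 tumor was left out, and the cause was not tested. Across the tumors left out, the log2 fold change ranged from -0.268 to 0.131 for Adgre1, -0.381 to 0.028 for Apoe, -0.191 to 0.042 for C1qc, -0.674 to 0.103 for Cd14, -0.499 to 0.112 for Fcer1g, -0.291 to 0.126 for Fcgr3, -0.866 to 0.182 for Lyz1, -0.218 to 0.071 for Lyz2, -0.070 to 0.350 for Mertk, -0.382 to 0.1 for Mrc1, -0.107 to 0.133 for Msr1, -0.341 to 0.003 for Trem2 and -0.172 to 0.026 for Tyrobp. The lowest limma adjusted p of any of the 29 genes under any setting was 0.548.

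The deviations of same-numbered tumors from their genotype means correlated at -0.33, 0.038 and -0.13. Those of tumors with different replicate numbers correlated at -0.288 to 0.367. Deviations from a mean of 3 tumors depend on each other, so these values cannot settle whether the numbers pair the tumors. With the number as a block there were 289 higher and 284 lower DEGs, and the median of the 29 genes was -0.151. The 7 genes lower without overlap, and the 1 higher, were as many after rescaling by median ratios.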
